A study of Mus musculus with 24 samples.

Results

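The RNA of the whole dentate gyrus of mice was compared between animals taken after 27 days and animals taken after 11 days of voluntary wheel running or of life with a blocked wheel. The comparison rests on 8 of the 24 libraries of the series, all of them made from tissue RNA that was not precipitated (input). They were chosen by their labels alone. Day 27 is held by the running input libraries e and f and the sedentary input libraries e and f, and day 11 by the running input libraries a and b and the sedentary input libraries a and b. All mice were female C57BL6 mice that carried Tg(Nestin-cre/ERT2)::RPL22HA/WT, also written Nes-CreERT2::RiboTag, and all had received tamoxifen daily for 5 days at 9 to 11 weeks of age. Running mice lived alone with a turning wheel, and sedentary mice in the same kind of cage with a glued one, for the same number of days. The Nestin promoter limits the tag to stem cells and their descendants, but the input holds RNA of every cell of the dissected piece, tagged or not. The labels give neither the age at sampling nor the number of mice in a library, so p-values measure the spread between these libraries, which may be technical.

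The dentate gyrus is the gate of the hippocampus. Its granule neurons receive input from the entorhinal cortex and send mossy fibres to mossy cells of the hilus and to CA3 pyramidal neurons, while interneurons, astrocytes, oligodendrocytes, microglia and vessels make up the rest of the tissue. Stem cells below the granule layer go on producing granule neurons in adult mice, and a new neuron passes through dividing progenitor, immature and mature stages over several weeks. Such new cells are a small part of the tissue, so tissue RNA is mainly that of mature cells.

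Values are TPM, a share of all transcripts corrected for transcript length, which keeps no read depth, so the depth of each library is unknown. In the 8 libraries the median gene stood between 4.43 and 6.27 TPM and between 1399 and 4255 of the 23306 genes were listed at 0. Values of single libraries are given throughout in the order sedentary e, running e, sedentary f and running f for day 27, and sedentary a, running a, sedentary b and running b for day 11. The labelled tissue was checked with its markers. Prox1, the transcription factor that fixes granule neuron identity, stood at 265, 275, 249 and 259.6 TPM at day 27, against 238, 257, 251 and 249 TPM at day 11 (chromosome 1, 190118035 to 190170714, minus strand, GRCm38, as all coordinates here). Calb1, the calcium buffer calbindin of mature granule neurons, stood at 265, 229, 243 and 221 TPM at day 27, against 219, 203, 263 and 189.6 TPM at day 11. Both were abundant in every library. Rpl22, the gene whose protein carries the tag, averaged 175 ± 19.8 TPM at day 27 and 189 ± 44.5 TPM at day 11 (mean ± SD over the 4 libraries of a day, as in all such values below).

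Genes that the tissue should not use served as a measure of background. Olfactory receptor genes, used by sensory neurons of the nose, averaged 1.98, 3.06, 1.74 and 3.66 TPM in the day 27 libraries, against 2.58, 0.709, 0.542 and 0.518 TPM in the day 11 libraries. Sedentary library a of day 11 therefore stood among the day 27 libraries, and the other 3 libraries of day 11 stood below all of them. The day means were 2.61 ± 0.908 and 1.09 ± 0.999 TPM (difference 1.52 TPM, two-sided exact permutation test over 70 relabellings, p = 0.0857, smallest possible p = 0.0286). Vomeronasal receptor genes, which serve pheromone sensing, had the same order between the days and put the same library among those of day 27, at 5.03, 7.29, 4.75 and 9.78 TPM for day 27 against 5.71, 1.75, 2.39 and 2.59 TPM for day 11. This family summed to 1542 to 3178 TPM at day 27 and 570 to 1856 TPM at day 11. Most of that sum was a single gene, Vmn1r58 (values below), so these means are not a measure over many genes. In the 4 input libraries of day 18, which are not part of this comparison, the olfactory receptor mean was 7.36 ± 2.09 TPM. The first principal component of the 8 libraries held 51.7% of their variance and placed them in the same way. It gave −9.18, −41.1, −2.67 and −52.4 for day 27, against −24.9, 36.0, 45.5 and 48.8 for day 11. Library letters differ between the days, so a difference between days and a difference between letters cannot be told apart.

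**Figure D1:**
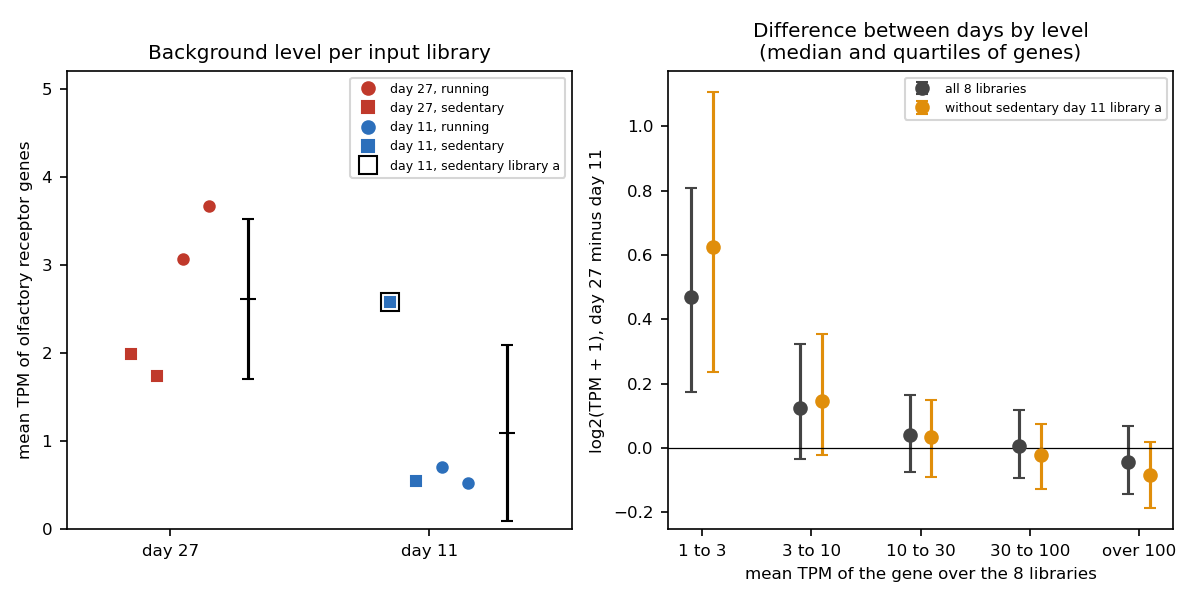
Left, the mean TPM of olfactory receptor genes in each input library (points, circles running, squares sedentary) with the mean and SD of each day (bars); right, the median and quartiles over genes of the log2(TPM + 1) difference, day 27 minus day 11, by mean TPM of the gene, for all 8 libraries and without sedentary library a of day 11. Sedentary library a of day 11 (framed, 2.58 TPM) lies among the day 27 libraries, and the median difference is 0.47 for genes of 1 to 3 TPM and −0.04 for genes over 100 TPM.

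No gene passed between day 27 and day 11 in the tissue. Of 17291 genes tested by limma on log2(TPM + 1), 0 were higher (0%) and 0 lower (0%) at an adjusted p under 0.05, and the lowest adjusted p was 0.172. The same test without the trend and robust options of eBayes passed 1 gene. At an unadjusted p under 0.05, 2197 genes were higher at day 27 (12.7%) and 226 lower (1.31%). This split depended on the scaling. It was 1621 higher and 817 lower under median-of-ratios scaling, and 568 higher and 858 lower after subtraction of the olfactory receptor mean. All 4 libraries of day 27 stood above all 4 of day 11 for 756 genes (4.37%) and below them for 218 genes (1.26%). The lean to higher values at day 27 came with low levels. Among 4018 genes of 1 to 3 TPM, 87.3% had a positive difference and the median difference was 0.47. Among the 1891 genes of 100 TPM and over, 39.1% were positive and the median was −0.04. Between these ends the median was 0.13 at 3 to 10 TPM, 0.04 at 10 to 30 TPM and 0.01 at 30 to 100 TPM. The correlation of a gene's log2(TPM + 1) with the log2 olfactory receptor mean, over the 12 input libraries with day 18, also went with level. Its median was 0.85 at 1 to 3 TPM, −0.53 at 30 to 100 TPM and −0.72 at 100 TPM and over. For the 9900 genes with a mean of at least 10 TPM, 655 were higher (6.62%) and 174 lower (1.76%) at an unadjusted p under 0.05, and 52.5% had a positive difference, against 64.1% of all genes tested. The 95% interval of a gene's difference, not adjusted for the number of genes, reached a median of 0.70 to either side at 1 to 3 TPM and 0.30 at 30 to 100 TPM. This width is not the limit of what could be called, which lies higher. A difference of 1.54 in Cox7b2 did not pass in limma (adjusted p = 0.172).

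Leaving out sedentary library a of day 11 changed the count of calls more than any other alternative tried. Without it 1241 of 17036 genes were higher at day 27 (7.28%) and 5 were lower (0.0293%). Of the 1241, 334 were olfactory receptor genes and 946 had a mean under 10 TPM, with a median of 2.55 TPM against 14.97 TPM over all genes tested. Receptor genes of the olfactory and vomeronasal families were 31.1% of the 1241 and 4.31% of all genes tested. Libraries that played no part in this fit were compared next. The left-out library stood at or above the lowest day 27 library for 85.6% of the 1241 genes and 69.8% of all genes. The mean of the day 18 libraries was above the day 27 mean for 98.6% of the 1241 and 54.9% of all genes. With the olfactory receptor mean as a covariate as well, 0 genes were higher and 0 lower, but the median SE of a gene was then 1.19 against 0.19 without the covariate, so that this count says little. At an unadjusted p under 0.05 it had 411 genes higher and 561 lower in limma. The share of the background in these calls was not tested further.

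The genes with the highest levels among the 1241 shared one pattern. Ctla2a, a cysteine protease inhibitor, stood at 959, 1690.2, 962 and 2521 TPM at day 27, against 1040.0, 239.5, 283 and 324 TPM at day 11 (adjusted p = 0.00376 without library a, 0.172 with it). Its day 18 libraries held 2571, 4956, 3825 and 3392 TPM. H2-Q4, a class I histocompatibility gene, stood at 1259, 1846, 991 and 2121 TPM at day 27, against 1328, 329, 351 and 305 TPM at day 11. Zfp488, a zinc finger gene of the oligodendrocyte lineage, stood at 1674, 2337, 1364 and 2472 TPM at day 27, against 1792, 609, 712 and 647 TPM at day 11. In each of these genes the left-out library lay within the range of the day 27 libraries, and the other 3 libraries of day 11 lay below it. Grk4, a receptor kinase, and Vmn1r58, a vomeronasal receptor, had the same pattern, with 3178 ± 920.3 TPM at day 27 and 1574 ± 784 TPM at day 11 for Grk4 and 1635 ± 550.2 TPM at day 27 and 810.3 ± 369.7 TPM at day 11 for Vmn1r58.

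**Figure D2:**
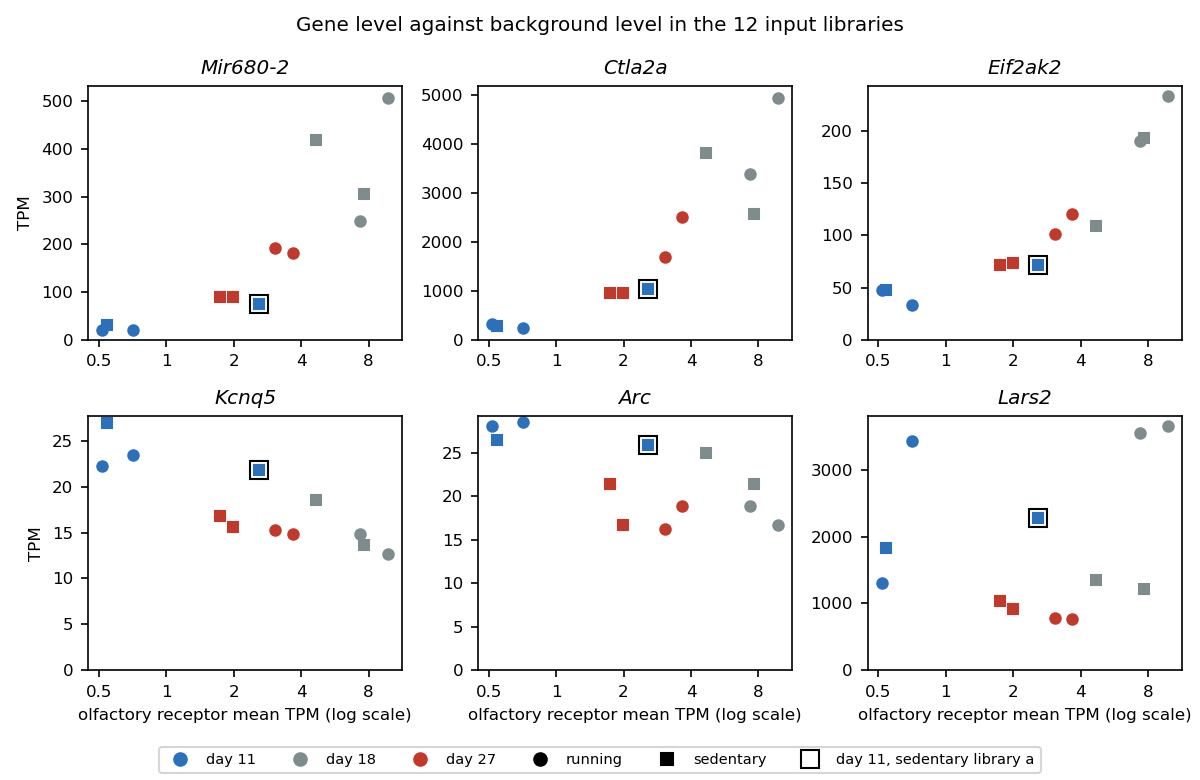
TPM of 6 genes (vertical axes) against the olfactory receptor mean TPM (horizontal axes, log scale) in the 12 input libraries, with circles for running and squares for sedentary mice and a frame around sedentary library a of day 11. Mir680-2 and Ctla2a are higher in every day 18 library than in any other, Eif2ak2 is so in 3 of the 4 (its sedentary library d of day 18 holds 109 TPM, its running library f of day 27 holds 121 TPM), and Kcnq5 and Arc are not. Arc runs the other way, with a correlation of −0.65 between its log2(TPM + 1) and the log2 olfactory receptor mean.

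The 5 genes that were lower at day 27 without library a were few enough to name, although they were picked after their values were seen. Kcnq5, which encodes a potassium channel subunit of the M current that restrains repeated firing (chromosome 1, 21398403 to 21961942, minus strand), stood at 15.6, 15.3, 16.8 and 14.9 TPM at day 27, against 21.8, 23.4, 27.0 and 22.3 TPM at day 11. No day 27 library reached the lowest of day 11. The log2 difference was −0.56 ± 0.12 (SE) with unadjusted p = 0.00117 and adjusted p = 0.172, and the adjusted p was 0.027 without library a. Smpd3, the neutral sphingomyelinase that makes ceramide, stood at 38.6, 35.3, 37.9 and 37.6 TPM at day 27, against 43.2, 49.2, 53.5 and 57.6 TPM at day 11 (adjusted p = 0.0485 without library a and 0.189 with it). The groups again did not overlap. Cpne7, a copine that binds membranes in response to calcium, stood at 33.8, 26.6, 39.5 and 28.6 TPM at day 27, against 39.0, 56.4, 44.4 and 49.0 TPM at day 11 (adjusted p = 0.0375 and 0.172 in the same order). The sedentary library a of day 11 lay within the range of day 27 here. The pseudogene-like model Gm10052 averaged 95.7 ± 50.4 TPM at day 27 and 223 ± 58.6 TPM at day 11, and the small nucleolar RNA Snora30 was listed at 0 in all day 27 libraries, against 16.8, 2.88, 13.9 and 0 TPM at day 11.

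Among genes with a mean of at least 10 TPM on the higher day and no overlap between days, those of lowest unadjusted p were examined next. This was again a choice made after their values were seen. A gene under 10 TPM on the other day enters only through the day where it is high, so this filter favours a difference. Those that stood lower at day 27 are given first. Arc, an immediate early gene whose protein removes AMPA receptors from synapses (chromosome 15, 74669083 to 74672570, minus strand), stood at 16.6, 16.3, 21.4 and 18.8 TPM at day 27, against 25.9, 28.6, 26.5 and 28.1 TPM at day 11. The log2 difference was −0.56 ± 0.12 (SE, unadjusted p = 0.00156, adjusted p = 0.172). Nr4a3, an orphan nuclear receptor that is also an immediate early gene, stood at 63.7, 57.4, 56.6 and 50.7 TPM at day 27, against 84.3, 87.0, 75.04 and 71.3 TPM at day 11. Sv2b, a synaptic vesicle glycoprotein, stood at 69.1, 78.7, 83.3 and 60.4 TPM at day 27, against 97.6, 117, 106 and 105 TPM at day 11. Cplx1, a complexin that clamps vesicle fusion, stood at 287, 292, 328 and 359 TPM at day 27, against 475, 445, 405 and 574 TPM at day 11. For all 4 genes each day 27 library lay below each day 11 library, and none passed over all genes (adjusted p = 0.172, 0.175, 0.172 and 0.177). Their day 18 means were near or below those of day 27, at 20.5, 51.3, 67.7 and 231 TPM in the same order of genes.

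Other genes on this side had various functions. Plch2, a phospholipase C, averaged 17.9 ± 1.10 TPM at day 27 and 25.6 ± 3.80 TPM at day 11. Ndufb7, a subunit of respiratory complex I, stood at 95.9, 88.2, 102 and 89.6 TPM at day 27, against 121, 126, 121 and 132 TPM at day 11. Atp6v1f, a subunit of the vacuolar proton pump, stood at 107, 129, 143 and 130.5 TPM at day 27, against 181, 174, 176 and 173 TPM at day 11. The day 11 libraries differed little from each other in the last gene, and all lay above day 27. Man1a, a mannosidase of the Golgi, Eme2, a subunit of a DNA nuclease, and Commd4 had log2 differences of −0.54 ± 0.13, −0.55 ± 0.14 and −0.45 ± 0.12 (SE). Nnat, an imprinted gene of developing neurons, stood at 92.0, 102, 131 and 92.9 TPM at day 27, against 153, 161, 133 and 154 TPM at day 11, with an adjusted p of 0.189. Nov, listed under that older name and now called Ccn3, encodes a secreted matricellular protein and averaged 4.71 ± 2.21 TPM at day 27 and 11.0 ± 3.22 TPM at day 11.

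Lars2 and Rn45s had larger differences but unequal libraries. Lars2, the mitochondrial leucine tRNA synthetase, stood at 920.4, 779, 1031 and 765 TPM at day 27, against 2283, 3434, 1826 and 1302 TPM at day 11 (log2 difference −1.26 ± 0.28, SE, adjusted p = 0.172). Every day 27 library lay below every day 11 library, but the day 11 values spread widely and both running libraries of day 18 held more again (1212, 3662, 1347 and 3558 TPM at day 18, in the order sedentary c, running c, sedentary d, running d). Rn45s, the precursor of ribosomal RNA, stood at 551, 454, 639 and 598 TPM at day 27, against 1677, 1718, 766 and 802 TPM at day 11. Both libraries of letter a at day 11 were high in it and both of letter b were near those of day 27 (adjusted p = 0.208).

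On the higher side the gene of lowest p was Mir680-2, a microRNA gene (chromosome X, 144297790 to 144297899, plus strand). It stood at 89.2, 192, 89.7 and 182 TPM at day 27, against 74.5, 19.4, 30.2 and 21.2 TPM at day 11. The sedentary library a of day 11 came near the sedentary libraries of day 27, and the running libraries of day 27 held about as much as each other. The log2 difference was 2.02 ± 0.24 (SE, unadjusted p = 2.38e-05, adjusted p = 0.172, and 0.00256 without library a). At day 18 the 4 libraries held 307, 508, 419 and 249 TPM. The mature sequence is shown because 3 gene copies share it, so that reads cannot be assigned to one copy by it. It is given 5′ to 3′ from RefSeq (GRCm38.p6), with the seed, bases 2 to 8, in capitals.
Mir680-2, chrX:144297790-144297810, plus strand: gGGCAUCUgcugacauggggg
The copies Mir680-1 on chromosome 6 and Mir680-3 on chromosome 12 carry the identical 21 bases. TPM here come from libraries of total RNA and not from a small RNA protocol, per the labels' protocols.

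The protein-coding genes of lowest p on this side were of several kinds. Eif2ak2, the kinase PKR that stops translation when it meets double-stranded RNA, stood at 73.2, 101, 72.1 and 121 TPM at day 27, against 71.4, 33.3, 47.7 and 47.7 TPM at day 11 (log2 difference 0.88 ± 0.17, SE, adjusted p = 0.172). Ppm1k, a mitochondrial phosphatase of branched-chain amino acid breakdown, stood at 167, 253, 185 and 461 TPM at day 27, against 165, 90.4, 113 and 117 TPM at day 11. Cd300a, an inhibitory receptor of myeloid cells, stood at 13.7, 15.8, 12.3 and 19.7 TPM at day 27, against 12.1, 7.14, 9.16 and 8.4 TPM at day 11. Their lowest day 27 library and the sedentary library a of day 11 lay within a few percent of each other, and their day 18 means were higher still, at 181, 315 and 35.1 TPM in that order. Mrpl51, a protein of the mitochondrial ribosome, averaged 88.8 ± 21.01 TPM at day 27 and 48.1 ± 9.34 TPM at day 11. Mrpl1, another, averaged 37.7 ± 4.45 TPM at day 27 and 26.8 ± 3.56 TPM at day 11. Polr2k, a small subunit shared by the RNA polymerases, stood at 64.1, 77.3, 68.4 and 89.8 TPM at day 27, against 53.7, 44.4, 56.3 and 52.5 TPM at day 11. Gimap8, a GTPase of lymphocytes, averaged 13.7 ± 1.04 TPM at day 27 and 7.66 ± 2.69 TPM at day 11, and Tacr1, the receptor for substance P, averaged 11.5 ± 2.50 TPM at day 27 and 6.81 ± 1.36 TPM at day 11.

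In 3 further genes the day 18 mean was close to or below that of day 27. Cd247, the zeta chain of the T cell receptor, stood at 25.5, 20.6, 22.8 and 19.8 TPM at day 27, against 16.4, 14.2, 18.3 and 14.4 TPM at day 11 and averaged 19.5 TPM at day 18. Styx, a pseudophosphatase, stood at 14.4, 14.9, 15.2 and 13.8 TPM at day 27, against 9.21, 6.91, 12.7 and 8.64 TPM at day 11 and averaged 13.5 TPM at day 18. The long noncoding RNA Pvt1 stood at 18.2, 17.6, 18.8 and 18.3 TPM at day 27, against 13.7, 11.8, 13.5 and 9.44 TPM at day 11 and averaged 18.5 TPM at day 18. In all 3 genes the days did not overlap, and the adjusted p was 0.172 for each.

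**Figure D3:**
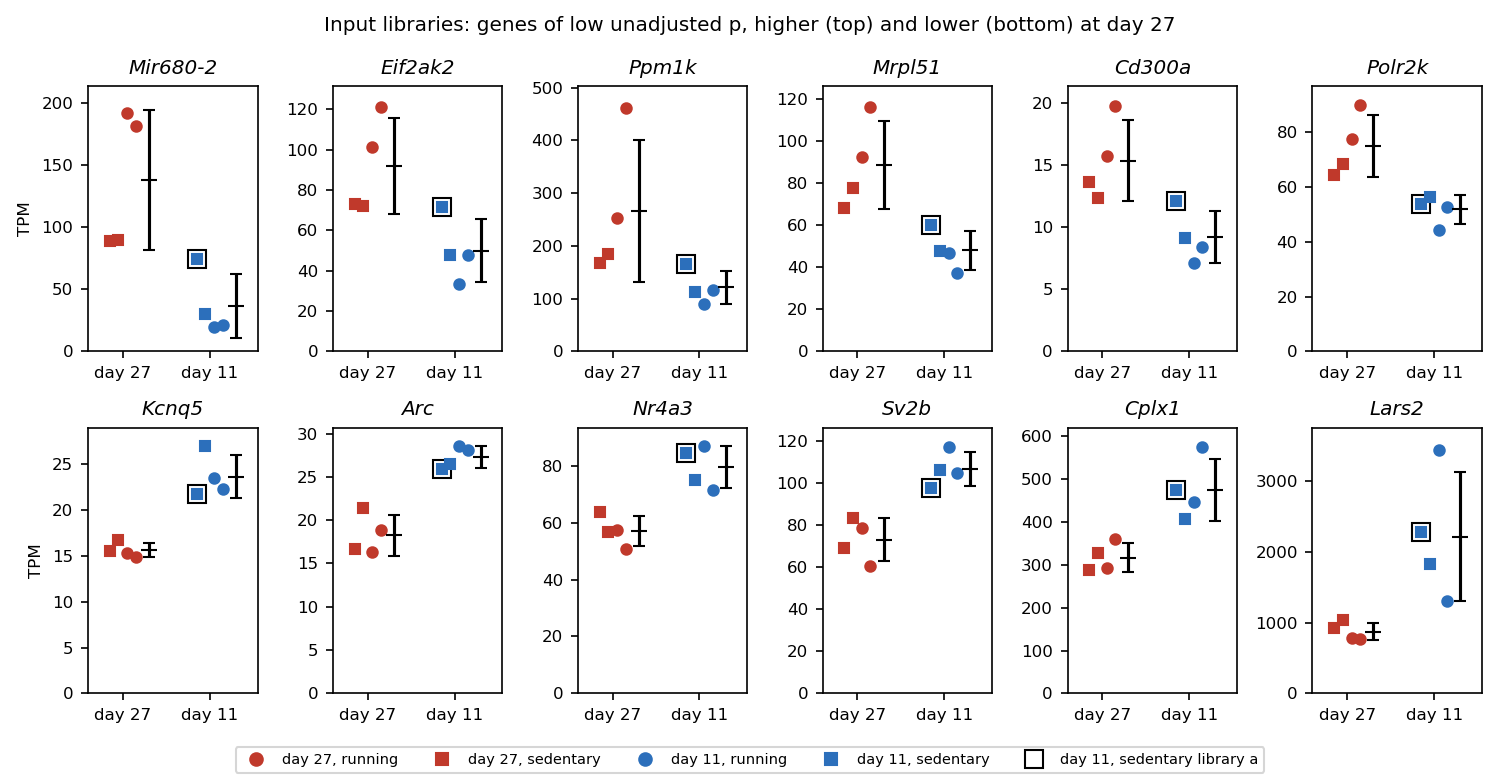
TPM in the 4 input libraries of day 27 (left) and the 4 of day 11 (right) for 12 genes of low unadjusted p, with circles for running and squares for sedentary mice, a frame around sedentary library a of day 11, and the mean and SD as bars. In the top row this framed library is the day 11 point nearest to day 27 for Mir680-2, Eif2ak2, Ppm1k, Mrpl51 and Cd300a, and in the bottom row all 4 day 27 libraries lie below the day 11 libraries.

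Gene lists of cell types and functions were then described by their counts. None of their members passed in this comparison, so the counts below use the unadjusted p under 0.05, which 12.7% of all genes passed on the higher and 1.31% on the lower side. In bulk tissue, fewer cells of a type and less RNA per cell cannot be told apart. Mature granule neuron genes leaned higher. Of 20 members 17 had a positive difference, with a median of 0.16 against 0.08 over all genes tested, and 1 was higher and 0 lower at this p. The median level of the list was 92.7 TPM, and among all genes of 30 to 100 TPM 52.2% were positive, with a median of 0.01. Stxbp6, which inhibits vesicle fusion, stood at 232, 194, 202 and 165 TPM at day 27, against 142, 116, 180.2 and 131 TPM at day 11 (adjusted p = 0.195). The lowest day 27 library lay below the highest of day 11. C1ql2, a secreted organiser of mossy fibre synapses, averaged 146 ± 18.4 TPM at day 27 and 121 ± 15.5 TPM at day 11, and Ntng1, netrin G1, averaged 91.4 ± 9.70 TPM at day 27 and 70.7 ± 18.7 TPM at day 11. Prox1 and Calb1 differed by 0.08 ± 0.11 and 0.14 ± 0.12 on the log2 scale (95% intervals −0.18 to 0.33 and −0.14 to 0.41). Without library a the median of the list was 0.08.

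Genes of CA pyramidal and mossy neurons leaned lower. Of 20 members 4 had a positive difference, with a median of −0.16, and 6 were lower and 0 higher at an unadjusted p under 0.05. Without library a 1 member was called higher, Csf2rb2, and 1 lower, Kcnq5. Beside Kcnq5 and Man1a above, the transcription factor gene Neurod6 of pyramidal neurons stood at 101, 123, 128 and 103 TPM at day 27, against 139, 125, 177 and 207 TPM at day 11. Its highest day 27 library exceeded the lowest of day 11. Spock1, a proteoglycan gene, stood at 61.8, 56.4, 61.2 and 49.0 TPM at day 27, against 67.5, 75.8, 74.5 and 67.8 TPM at day 11, with every day 27 library below every day 11 library. The summed level of the list was 1722 to 1857 TPM at day 27 and 1894 to 2016 TPM at day 11, so the days did not overlap in it. Fibcd1, Mpped1 and Wfs1 of this list differed by −0.70, −0.67 and −0.55 on the log2 scale. The 4 positive members, Csf2rb2, Ajap1, Drd2 and Cpne4, differed by 0.22, 0.16, 0.05 and 0.05, so the members did not move alike. How far the dissected piece contained hilus and each of the CA fields was not tested. Of 17 interneuron genes 4 were positive (median −0.12) and 2 were lower at this p. These were the growth factor receptor gene Kit, which averaged 12.3 ± 3.29 TPM at day 27 and 16.7 ± 2.62 TPM at day 11 (adjusted p = 0.238), and Sncg, given with the presynaptic genes below. Sst, the neuropeptide somatostatin of hilar interneurons, did not pass this p and stood at 329, 285, 355 and 294 TPM at day 27, against 399.5, 356, 391 and 355 TPM at day 11.

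Few genes of the neurogenic lineage differed. Among the neural stem cell list 8 of 18 genes had positive differences (median −0.09), and 1 was lower at an unadjusted p under 0.05. This was Vim, an intermediate filament, at 39.9, 34.1, 48.0 and 46.8 TPM at day 27, against 54.2, 53.4, 48.1 and 62.7 TPM at day 11. Gfap, the filament of astrocytes and radial stem cells, stood at 263, 261, 299.7 and 266 TPM at day 27, against 285, 331, 305 and 349 TPM at day 11 (log2 difference −0.22 ± 0.12, 95% interval −0.49 to 0.05). The sedentary library f of day 27 held the most of its day and lay within the range of day 11. Of 24 cell cycle genes 17 were positive (median 0.10) and 2 were higher. These were Tyms, thymidylate synthase, and Ccnb1, cyclin B1. The median level of the list was 3.8 TPM. Of all 3371 genes of 3 to 10 TPM, 70.4% were positive (median 0.13) and 503 were higher at this p, so the list did not stand out from genes of its level. Tyms stood at 672, 944, 465 and 899.8 TPM at day 27, against 823, 243, 216 and 169 TPM at day 11 and reached 2025, 3425, 1749 and 2733 TPM in the day 18 libraries, and Ccnb1 stood at 4.18, 4.65, 2.58 and 6.89 TPM at day 27, against 5.00, 1.90, 1.08 and 0.630 TPM at day 11. The sedentary library a of day 11 had more Tyms than 2 of the day 27 libraries, and the median of the list was −0.35 after subtraction of the olfactory receptor mean. Top2a, the topoisomerase of dividing cells, averaged 2.35 ± 0.506 TPM at day 27 and 3.31 ± 0.468 TPM at day 11, a log2 difference of −0.37 ± 0.19.

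Of 16 genes of progenitors and neuroblasts 6 were positive (median −0.06) and 1 was higher. This was Tfap2c, a transcription factor, which averaged 2.60 ± 1.02 TPM at day 27 and 1.12 ± 0.805 TPM at day 11, close to the 1 TPM filter. Eomes, the transcription factor of intermediate progenitors, averaged 1.82 ± 0.688 TPM at day 27 and 2.67 ± 0.810 TPM at day 11. Of 22 immature neuron genes 7 were positive (median −0.18), and 5 were lower and 0 higher at an unadjusted p under 0.05. For 4 of them all day 27 libraries lay below all of day 11, as they did for 1.26% of all genes tested. The median level of the list was 92.0 TPM, and of 3914 genes of 30 to 100 TPM 63 had no overlap on this side. Beside Nnat above, Stmn2, a destabiliser of microtubules in growing axons, stood at 127, 116, 115 and 97.2 TPM at day 27, against 140.1, 185, 157 and 142 TPM at day 11. Tubb3, the neuronal tubulin, stood at 80.7, 80.3, 80.2 and 82.5 TPM at day 27, against 91.0, 138, 94.4 and 108 TPM at day 11, with little spread at day 27. Rgs10, a regulator of G protein signals that microglia also express, averaged 81.1 ± 3.10 TPM at day 27 and 98.3 ± 5.43 TPM at day 11. Dcx, doublecortin, the microtubule protein of migrating newborn neurons (chromosome X, 143855842 to 143933311, minus strand), was also measured. It stood at 13.3, 15.8, 14.0 and 12.6 TPM at day 27, against 14.2, 14.4, 13.7 and 14.2 TPM at day 11, a log2 difference of −0.02 ± 0.12 (SE, 95% interval −0.30 to 0.25, adjusted p = 0.958). Stmn2, Tubb3 and Nnat are also expressed by mature neurons.

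Glial and vascular lists held few members below this p. None of 20 astrocyte genes passed it (5 positive, median −0.11). Aldh1l1, a folate enzyme of astrocytes, averaged 21.6 ± 2.44 TPM at day 27 and 25.9 ± 3.52 TPM at day 11. Of 18 genes of oligodendrocyte precursors 1 was lower (median −0.09). Gpr17, a receptor of cells about to differentiate, stood at 14.3, 15.3, 14.7 and 13.3 TPM at day 27, against 17.3, 19.8, 19.8 and 18.1 TPM at day 11, with no overlap. None of 25 genes of myelinating oligodendrocytes passed (8 positive, median −0.09). Mbp, myelin basic protein, stood at 262, 225, 209 and 170.2 TPM at day 27, against 276, 304, 206 and 171 TPM at day 11, a log2 difference of −0.12 ± 0.21 (SE, 95% interval −0.61 to 0.36). Of 20 microglia genes 3 were higher and 1 lower (median −0.09). P2ry12, the nucleotide receptor of resting microglia, stood at 45.8, 37.4, 41.2 and 36.0 TPM at day 27, against 28.5, 21.4, 41.9 and 24.8 TPM at day 11. Sedentary library b of day 11 lay within the range of day 27. Gpr34 averaged 15.3 ± 2.32 TPM at day 27 and 11.6 ± 2.58 TPM at day 11, Siglech averaged 16.1 ± 0.997 TPM at day 27 and 13.3 ± 1.38 TPM at day 11, and Aif1, which encodes Iba1, averaged 9.28 ± 1.74 TPM at day 27 and 12.1 ± 1.60 TPM at day 11. Cx3cr1, the fractalkine receptor, stood at 24.4, 24.8, 27.5 and 22.7 TPM at day 27, against 24.1, 23.8, 22.0 and 25.3 TPM at day 11 and differed by 0.06 ± 0.11 (95% interval −0.19 to 0.30).

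None of 18 endothelial genes (14 positive, median 0.11), 14 pericyte genes (8 positive, median 0.07) or 20 meningeal matrix genes (5 positive, median −0.13) passed an unadjusted p of 0.05. Of 9 ependymal genes 5 were positive (median 0.03), and of 4 blood cell genes 2 were positive (median −0.63). None of either list passed, although the haemoglobin genes Hba-a1 and Hba-a2 differed by −2.15 and −1.26. The positive blood cell genes, Alas2 and Ptprc, differed by 0.01 and 0.05. The medians of the pericyte and ependymal lists turned negative at a mean of at least 5 TPM (−0.13 and −0.17), and those of the meningeal and blood cell lists turned positive without library a (0.06 for each). The choroid plexus list had 8 positive of 11 tested members, a median of 0.49 and 4 members higher at this p. The median was −0.14 for members of at least 5 TPM and −0.12 after subtraction of the olfactory receptor mean. Ttr, transthyretin of the choroid plexus, stood at 10.2, 28.1, 8.03 and 6.44 TPM at day 27, against 5.13, 202, 14.3 and 10.5 TPM at day 11. The running library a of day 11 held far more than any other, at 202 TPM. Prlr, the prolactin receptor, stood at 11.6, 18.4, 8.99 and 18.9 TPM at day 27, against 14.3, 4.15, 3.97 and 4.56 TPM at day 11 and its day 18 libraries held 48.2, 64.2, 32.3 and 56.2 TPM. It was called higher without library a (adjusted p = 0.00483). The summed level of the list was 103 to 147 TPM at day 27 and 98.8 to 347 TPM at day 11. How much choroid plexus was carried over into each library was not tested.

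Genes that respond to neuronal activity had no common direction. Of 22 immediate early genes 11 were positive (median −0.01), and 3 were lower at an unadjusted p under 0.05. Beside Arc and Nr4a3, this was Ier2, which averaged 1.72 ± 0.368 TPM at day 27 and 3.35 ± 0.900 TPM at day 11. Fos, the immediate early gene most used to mark active neurons, stood at 2.31, 2.48, 2.68 and 2.94 TPM at day 27, against 2.19, 1.77, 2.0 and 2.95 TPM at day 11, a log2 difference of 0.17 ± 0.21 (95% interval −0.31 to 0.64). Of 28 activity and growth factor genes 12 were positive (median −0.08), with 1 higher and 3 lower. Pcsk1, a convertase of prohormones, averaged 6.70 ± 0.606 TPM at day 27 and 9.95 ± 1.81 TPM at day 11. Vgf, a secreted neuropeptide precursor, stood at 32.8, 32.5, 38.8 and 39.7 TPM at day 27, against 33.4, 55.2, 46.4 and 61.6 TPM at day 11, and Nptx2, a pentraxin that gathers AMPA receptors, averaged 18.0 ± 4.38 TPM at day 27 and 23.0 ± 5.31 TPM at day 11. In both genes the sedentary library a of day 11 lay within the range of day 27. Acvr1c, an activin receptor, was the higher one, at 39.2 ± 8.96 TPM at day 27 and 30.1 ± 6.85 TPM at day 11.

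At synapses, 4 of 25 presynaptic genes were positive (median −0.09), with 4 lower and 0 higher. The median level of this list was 262 TPM, and among all genes of 100 TPM and over 39.1% were positive (median −0.04). Beside Sv2b and Cplx1, Stx1a, the syntaxin of vesicle fusion, stood at 40.1, 46.9, 51.6 and 47.7 TPM at day 27, against 54.0, 64.7, 57.0 and 66.2 TPM at day 11 with no overlap, and Sncg, gamma-synuclein, averaged 4.20 ± 1.81 TPM at day 27 and 6.54 ± 1.26 TPM at day 11. Among glutamate receptor and postsynaptic genes 11 of 25 had positive differences (median −0.01), with 1 higher and 1 lower. Grik2, a kainate receptor subunit, stood at 125, 114, 124 and 98.5 TPM at day 27, against 87.3, 94.3, 98.0 and 80.0 TPM at day 11, with every day 27 library above every day 11 library. Homer3, a scaffold of metabotropic receptors, averaged 19.2 ± 2.06 TPM at day 27 and 26.3 ± 3.92 TPM at day 11 (adjusted p = 0.211). Of 17 genes of GABA receptors and chloride transport 11 were positive (median 0.05), and 1 was higher. Gabrb2, a subunit of the GABA A receptor that did not pass this p, averaged 159 ± 10.7 TPM at day 27 and 129 ± 18.4 TPM at day 11. Of 22 potassium channel genes 15 were positive (median 0.03), with Kcnip4 higher (83.9 ± 14.3 TPM at day 27 and 65.9 ± 7.84 TPM at day 11) and Kcnq5 lower. Of 28 axon guidance genes 16 were positive (median 0.04). Robo1, a receptor for Slit, stood at 30.6, 30.2, 31.1 and 30.4 TPM at day 27, against 37.0, 38.9, 36.5 and 36.8 TPM at day 11, the only one of them below this p. Under median-of-ratios scaling the medians of the GABA, potassium channel and axon guidance lists turned negative (−0.05, −0.07 and −0.06).

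**Figure D4:**
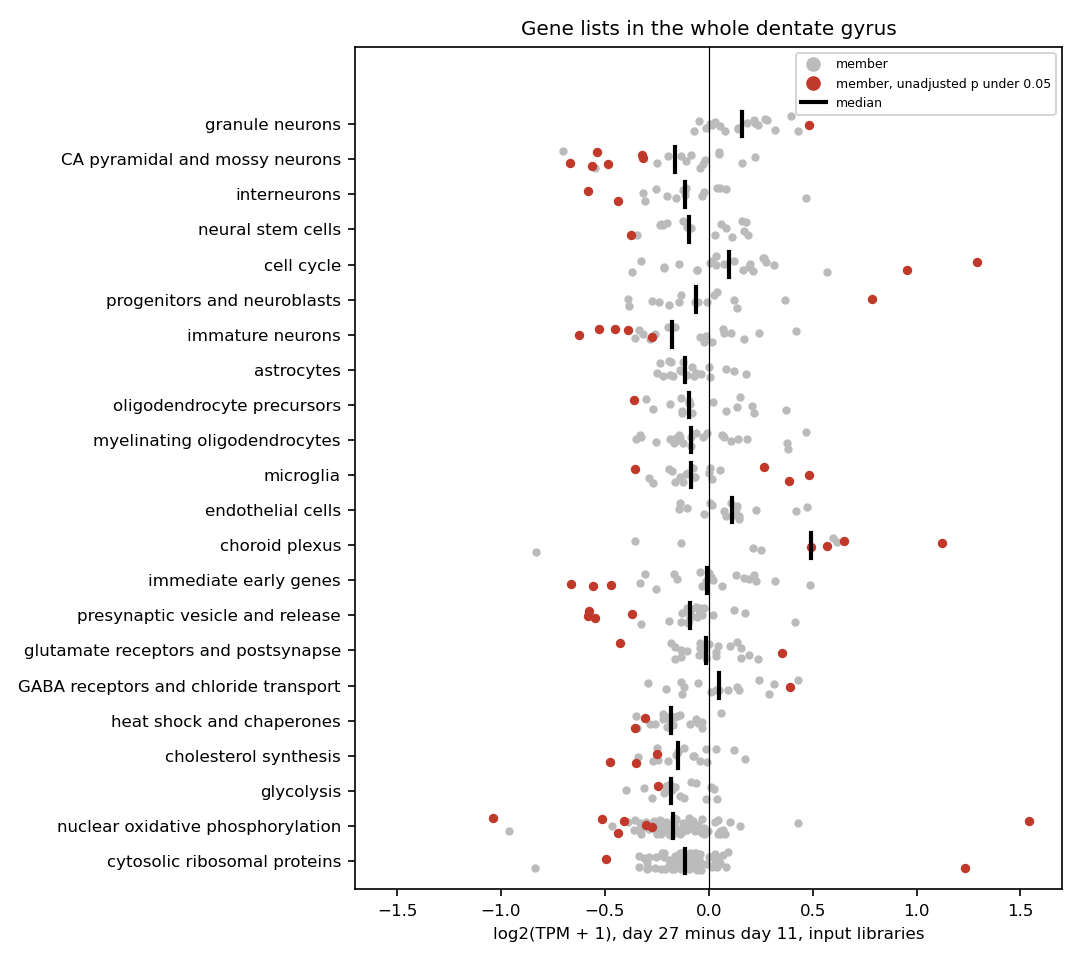
The log2(TPM + 1) difference, day 27 minus day 11, of each tested member of 22 gene lists in the input libraries (points, red at an unadjusted p under 0.05) with the median of each list (black bar). Medians run from −0.18 for heat shock and glycolysis genes to 0.49 for the choroid plexus list, and no member passed an adjusted p of 0.05.

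Genes of metabolism and protein folding leaned lower as lists, by small amounts. Of 80 nuclear genes of oxidative phosphorylation 11 were positive (median −0.17), and 6 were lower and 1 higher at an unadjusted p under 0.05. Their summed level was 15889 to 17126 TPM at day 27 and 18358 to 19194 TPM at day 11, with no overlap. Beside Ndufb7, Atp5j2, a subunit of ATP synthase, stood at 50.4, 39.5, 27.1 and 30.6 TPM at day 27, against 87.1, 102, 75.5 and 45.9 TPM at day 11, and Cox7b, of cytochrome c oxidase, averaged 219 ± 30.2 TPM at day 27 and 298 ± 44.9 TPM at day 11. The higher one was Cox7b2, a relative of Cox7b known from testis, at 6.80, 20.7, 10.7 and 14.1 TPM at day 27, against 7.24, 2.22, 6.42 and 1.13 TPM at day 11. Both running libraries of day 11 lay lowest in it. Of 22 heat shock and chaperone genes 1 was positive (median −0.18) and 2 were lower. Hyou1, a chaperone of the endoplasmic reticulum, stood at 43.6, 42.7, 45.4 and 41.6 TPM at day 27, against 47.1, 56.3, 55.3 and 57.1 TPM at day 11, and Pdia6, a disulfide isomerase, averaged 71.2 ± 9.17 TPM at day 27 and 91.8 ± 15.5 TPM at day 11. Of 20 glycolysis genes 3 were positive (median −0.18) and 1 was lower. Hk1, hexokinase, stood at 172, 169, 171 and 164 TPM at day 27, against 185, 213, 193 and 212 TPM at day 11. Of 19 cholesterol synthesis genes 3 were positive (median −0.15), and 3 were lower. Fdft1, squalene synthase, averaged 52.6 ± 2.48 TPM at day 27 and 63.1 ± 9.74 TPM at day 11. Of 77 cytosolic ribosomal protein genes 13 were positive (median −0.11), with 1 higher and 1 lower. Median-of-ratios scaling moved the median of all genes from 0.08 to −0.02, a shift of 0.10 against which these medians are to be read. The oxidative phosphorylation, glycolysis and ribosomal protein lists had median levels of 133, 172 and 383 TPM. Among all genes of 100 TPM and over 39.1% were positive, with a median of −0.04.

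Stress and clock lists had medians near 0, whose sign changed with median-of-ratios scaling (−0.08 and −0.003). Of 19 glucocorticoid response genes 10 were positive (median 0.02) and 1 was lower, and of 17 clock genes 11 were positive (median 0.09) and 1 was higher. Hlf, a transcription factor of the clock output, averaged 86.9 ± 18.1 TPM at day 27 and 71.1 ± 17.2 TPM at day 11, and Per2 averaged 12.2 ± 3.16 TPM at day 27 and 14.7 ± 1.53 TPM at day 11. Of 17 genes of complement, antigen presentation and interferon 12 were positive (median 0.08) and 1 was lower. That was Lcn2, lipocalin 2, which also belongs to the glucocorticoid list, at 1.07 ± 0.613 TPM at day 27 and 2.45 ± 0.877 TPM at day 11. Among extracellular matrix genes 9 of 25 were positive (median −0.08) and none passed this p. Of 11 genes of subicular and cortical neurons 6 were positive (median 0.06), with Ndst4 higher at 31.6 ± 4.14 TPM at day 27 and 23.6 ± 3.604 TPM at day 11. The table holds no entry of the mitochondrially encoded list, only 3 estrogen receptor and pituitary genes were tested, and only 4 blood cell genes.

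Noncoding and multicopy genes behaved unevenly. Nuclear retained RNAs had 9 positive of 10 members (median 0.12), and 2 were higher at an unadjusted p under 0.05. Kcnq1ot1, the imprinted antisense RNA of the Kcnq1 locus, stood at 212, 274, 180.3 and 274 TPM at day 27, against 209.7, 84.0, 105 and 96.0 TPM at day 11, and its day 18 libraries held 608, 791, 397 and 699 TPM. Xist, the RNA of X inactivation, stood at 109, 92.1, 93.1 and 75.5 TPM at day 27, against 65.2, 61.6, 80.5 and 61.5 TPM at day 11 (adjusted p = 0.195). Sedentary library b of day 11 lay above the running library f of day 27. Malat1 averaged 11852 ± 846 TPM at day 27 and 11256 ± 3367 TPM at day 11. Of 33 small nucleolar RNAs 6 were positive (median −0.82), with 1 higher and 8 lower, but many were listed at 0 in some libraries. Snord116, Snord116l1 and Snord116l2 had the same difference (−1.04), so the members are not all separate measurements. Snord15a, which guides modification of ribosomal RNA, stood at 92.8, 82.0, 58.2 and 47.1 TPM at day 27, against 188, 144, 140.0 and 79.7 TPM at day 11. Running library b of day 11 lay within the range of day 27 in it. Of 63 replication-dependent histone genes 26 were positive (median −0.10), with 5 higher and 9 lower. Histone genes are near-identical copies, so single values are uncertain. All 677 tested olfactory receptor genes, 111 of 113 vomeronasal receptor genes and all 30 tested keratin-associated and defensin genes had a positive difference, with medians of 0.95, 0.93 and 0.90. The table holds 1102, 325 and 94 genes of these families, and only those with a mean of at least 1 TPM were tested. Genes this low pass that filter mostly through the libraries where they are high, so these counts are set in part by the filter.

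Whether the difference between days depended on running was tested in the same fit. The day difference in running mice minus that in sedentary mice passed for 0 of 17291 genes (0% higher and 0% lower, limma), and at an unadjusted p under 0.05 the counts were 938 higher and 57 lower, against 317 higher and 518 lower after subtraction of the olfactory receptor mean. At day 27 both running libraries had higher olfactory receptor means than both sedentary ones. At day 11 sedentary library a stood above the other 3, which lay between 0.518 and 0.709 TPM. The genes of lowest p with the difference larger in running mice were Rhox3e, Cox7b2, Hist1h4b, Mir680-2 and Pola2. Pola2, a subunit of DNA polymerase alpha, stood at 29.7, 51.7, 30.3 and 73.0 TPM at day 27, against 32.2, 16.7, 20.2 and 17.6 TPM at day 11, an interaction of 1.56 ± 0.34 on the log2 scale. Both running libraries of day 27 were high. With the difference smaller in running mice were Oxld1, Rnaseh2c, Cpne7, Flywch2 and Ccdc8. Rnaseh2c, a subunit of ribonuclease H2, stood at 23.7, 24.2, 31.0 and 22.9 TPM at day 27, against 18.9, 29.9, 20.1 and 29.6 TPM at day 11, an interaction of −0.78 ± 0.24. The adjusted p was 0.576 for Rhox3e and 0.796 for the other 9. Between running and sedentary mice over both days, 0 of 17291 genes passed in limma, and at an unadjusted p under 0.05 the counts were 145 higher and 173 lower in running mice.

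The tissue was last set against the precipitate, in which ribosomes of recombined cells were pulled down (IP). The question was whether the day difference of a gene differed between them, with 8 IP libraries of the same days, activities and letters. The fit took IP and input libraries of the same activity and letter as separate samples. Any pairing between them does not enter its p-values. The day difference in the IP minus that in the input passed for 113 genes above 0 (0.644%) and 23 below 0 (0.131%) of 17553 tested by limma. Median-of-ratios scaling gave 72 and 35, and subtraction of the olfactory receptor mean 190 and 11. The counts rest on single libraries. They were 786 and 183 without running input library b of day 11. They were 0 and 0 without sedentary IP library a of day 11, without sedentary IP library e of day 27, or without the sedentary e, sedentary f or running f input library of day 27. Leaving out any of the other 10 libraries gave 1 to 165 above 0 and 0 to 65 below. Olfactory receptor means of the IP libraries were 1.93, 1.17, 2.05 and 1.33 TPM at day 27 and 0.565, 0.709, 1.10 and 1.40 TPM at day 11.

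The 5 genes of lowest p above 0 stood higher in the IP at day 27, and 4 of them overlapped between days in the tissue. Slc8a2, a sodium and calcium exchanger of neurons (chromosome 7, 16129826 to 16161063, plus strand), stood in the IP at 262, 409, 199.6 and 345 TPM at day 27, against 121, 102, 118 and 107 TPM at day 11. In the input it stood at 239, 242, 223 and 215 TPM at day 27, against 211, 296, 227 and 242 TPM at day 11. The difference of differences was 1.46 ± 0.18 on the log2 scale (SE, adjusted p = 0.0115). Npnt, nephronectin, a matrix protein on the granule neuron list, averaged 56.8 ± 12.9 TPM at day 27 and 26.9 ± 2.39 TPM at day 11 in the IP and 41.3 ± 1.13 TPM at day 27 and 42.8 ± 2.45 TPM at day 11 in the input. Doc2b, a calcium sensor of vesicle release, averaged 75.4 ± 3.85 TPM at day 27 and 36.4 ± 8.94 TPM at day 11 in the IP and 73.8 ± 13.2 TPM at day 27 and 75.7 ± 9.45 TPM at day 11 in the input. Icam5, an adhesion protein of dendrites, and Clstn3, a calsyntenin of synapses, had differences of 1.16 ± 0.17 and 1.12 ± 0.17 (SE, adjusted p = 0.021 for both). The input of Clstn3 was lower at day 27 with no overlap, at 83.0 ± 2.01 TPM at day 27 and 102 ± 14.7 TPM at day 11.

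Called members of the gene lists were named after their values were seen. Over all genes tested, 0.644% were called above 0 and 0.131% below. Of 25 glutamate receptor and postsynaptic genes 3 were called above 0 and 0 below. These were Grin1, the obligatory NMDA receptor subunit, and Camk2a and Camk2b, the kinases of the postsynaptic density. Grin1 averaged 329.6 ± 58.5 TPM at day 27 and 178 ± 4.73 TPM at day 11 in the IP and 229 ± 5.93 TPM at day 27 and 253 ± 35.5 TPM at day 11 in the input, a difference of 1.00 ± 0.16 (SE, adjusted p = 0.0217). Camk2a averaged 1835 ± 407 TPM at day 27 and 934 ± 58.6 TPM at day 11 in the IP and 2199.6 ± 65.5 TPM at day 27 and 2266 ± 235 TPM at day 11 in the input. Of 17 GABA and chloride genes 2 were called above 0. These were Gabbr2, a GABA B receptor subunit, and Slc12a5, the chloride exporter KCC2 of mature neurons, which averaged 145 ± 29.2 TPM at day 27 and 83.2 ± 8.88 TPM at day 11 in the IP and 155 ± 8.63 TPM at day 27 and 179 ± 14.7 TPM at day 11 in the input. Egr3 of the immediate early genes averaged 87.2 ± 18.8 TPM at day 27 and 35.5 ± 2.24 TPM at day 11 in the IP and 73.5 ± 8.03 TPM at day 27 and 74.0 ± 13.0 TPM at day 11 in the input, a difference of 1.25 ± 0.19 (SE). Dgat2 of the granule neuron list, Eno2 of glycolysis and Sv2a of the presynapse were each called above 0, with differences of 0.94 ± 0.19, 0.98 ± 0.20 and 0.90 ± 0.15 (SE).

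Of the 5 genes of lowest p below 0, 4 serve cell division and the other is Polr2k. Cenpf, a kinetochore protein (chromosome 1, 189640606 to 189688086, minus strand), stood in the IP at 17.0, 16.9, 15.8 and 17.1 TPM at day 27, against 40.7, 38.7, 29.8 and 42.3 TPM at day 11. In the input it stood at 5.22, 7.36, 4.28 and 6.94 TPM at day 27, against 6.0, 4.32, 3.71 and 4.82 TPM at day 11. Every IP library of day 27 lay below every one of day 11, and the input days overlapped. The difference was −1.40 ± 0.22 (SE, adjusted p = 0.0217). Kif11, the motor that separates spindle poles, stood in the IP at 9.60, 9.87, 9.71 and 9.84 TPM at day 27, against 21.9, 21.7, 20.2 and 25.9 TPM at day 11, and averaged 2.78 ± 1.02 TPM at day 27 and 2.54 ± 0.580 TPM at day 11 in the input. Nusap1, which bundles spindle microtubules, averaged 8.80 ± 1.54 TPM at day 27 and 15.8 ± 2.12 TPM at day 11 in the IP and 4.15 ± 0.490 TPM at day 27 and 3.15 ± 0.485 TPM at day 11 in the input. These were the 3 called members of 26 cell cycle genes, where 0.131% of all genes tested were called below 0. The median of the list was −0.87 against 0.02 over all genes tested. Nuf2, Ncapg and Mad2l1, of the kinetochore, condensin and the spindle checkpoint, had differences of −1.54 ± 0.28, −1.69 ± 0.26 and −1.60 ± 0.29 (SE). Neurod4, a proneural transcription factor, was the 1 called member of the 17 progenitor genes, at 3.27 ± 0.995 TPM at day 27 and 9.66 ± 2.92 TPM at day 11 in the IP and 2.06 ± 0.951 TPM at day 27 and 1.38 ± 0.831 TPM at day 11 in the input. B2m, the light chain of class I histocompatibility molecules, averaged 44.3 ± 11.0 TPM at day 27 and 80.2 ± 13.2 TPM at day 11 in the IP and 118 ± 15.6 TPM at day 27 and 108 ± 8.01 TPM at day 11 in the input. In Polr2k, Ncapg and Mad2l1 the input stood higher at day 27 with no overlap between days.

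**Figure D5:**
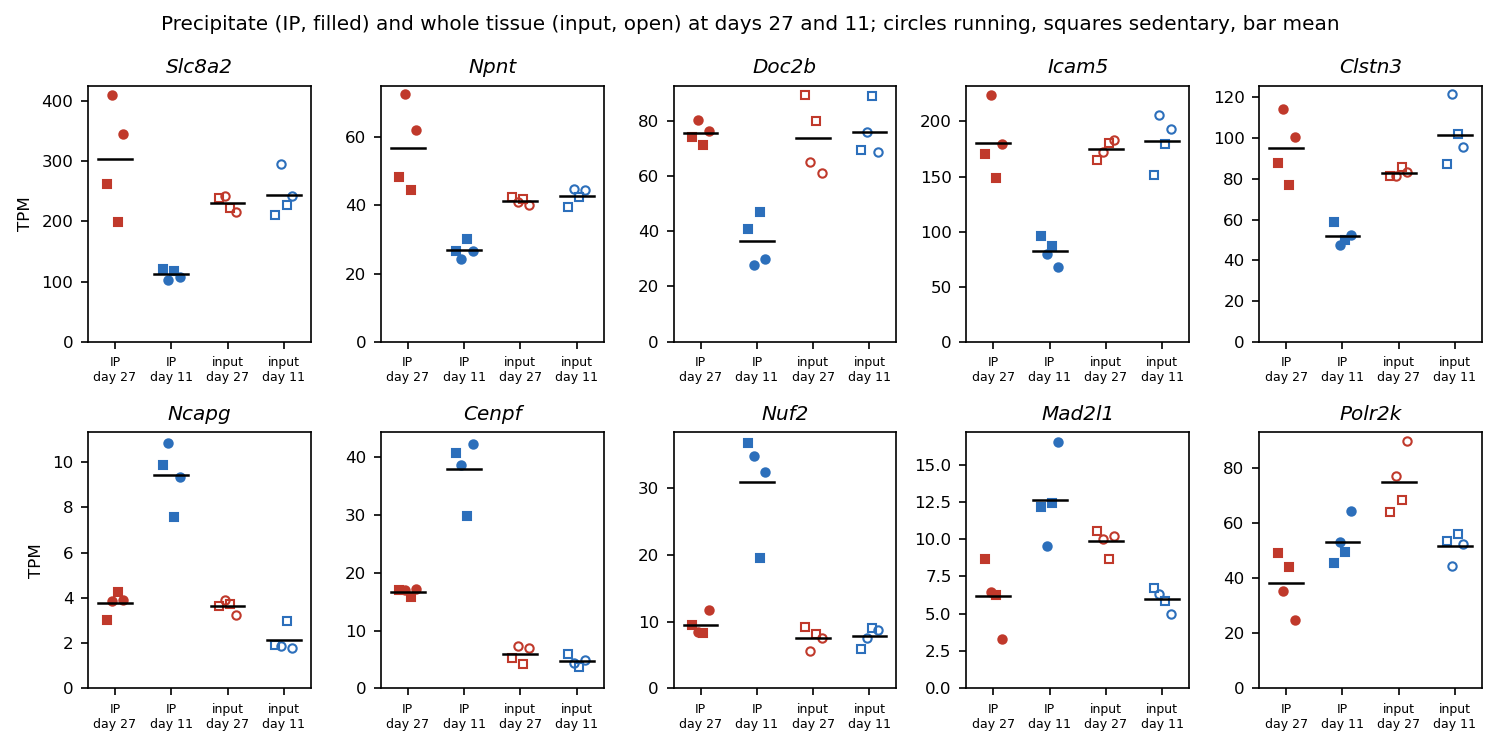
TPM of 10 genes in the precipitate (IP, filled) and the whole tissue (input, open) at day 27 and day 11, with circles for running and squares for sedentary mice and a bar at each mean. In the top row the IP of day 27 lies above that of day 11, in the bottom row below it except where the libraries of Polr2k overlap, while the input of Slc8a2, Npnt, Cenpf and Nuf2 overlaps between days.

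The promoters of the 3 called cell cycle genes are shown because they passed below 0 in this contrast. CCAAT, the site read by NF-Y, and TTTGAA, the cell cycle homology region, recur in promoters of cell cycle genes. Each sequence is the 150 bases before the RefSeq start (GRCm38.p6), 5′ to 3′ on the strand of the gene, with matches to CCAAT or TTTGAA on either strand in capitals (ATTGG and TTCAAA are their reverse complements).
Cenpf, chr1:189688087-189688236, minus strand: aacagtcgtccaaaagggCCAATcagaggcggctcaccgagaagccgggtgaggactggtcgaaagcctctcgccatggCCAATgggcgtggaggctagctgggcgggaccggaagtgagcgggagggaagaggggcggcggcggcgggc
Kif11, chr19:37376232-37376381, plus strand: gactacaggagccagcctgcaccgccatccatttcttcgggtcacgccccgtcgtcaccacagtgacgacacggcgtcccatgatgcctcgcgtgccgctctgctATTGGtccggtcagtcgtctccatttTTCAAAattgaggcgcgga
Nusap1, chr2:119618148-119618297, plus strand: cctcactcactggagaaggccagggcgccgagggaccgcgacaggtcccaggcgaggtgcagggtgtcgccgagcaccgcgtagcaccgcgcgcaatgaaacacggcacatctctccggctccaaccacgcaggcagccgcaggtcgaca
Of 22 cell cycle list genes with a promoter entry, 18 (81.8%) held CCAAT and 7 (31.8%) held TTTGAA in this window, against 27.7% and 10.5% of 27025 genes. Both motifs were in 6 of the 22 (27.3%) and in 2.63% of all. A match is a string of letters and does not show binding, and the absence of a match in Nusap1 says only that these letters are not in this window.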

How the data were processed

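RSEM and the build mm10 are named in the submitters' processing notes. No source used here states the aligner, annotation or strand setting, so overlapping and antisense genes could not be told apart. The authors deposited 1 table of TPM for 23306 gene names and 24 libraries, with the same total in every library. Of the names, 21619 were found in GENCODE M21 (GRCm38), 1265 more through RefSeq synonyms, and 158 had no match. Symbols that had become dates (25 different ones) were not named.

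Genes were tested two-sided with limma 3.58.1 under R 4.3.3 (lmFit, eBayes with trend and robust), and the background level by an exact permutation test in SciPy 1.17.1. The scale was log2(TPM + 1), on which changes of low genes come out too small. A gene entered a fit when its TPM averaged 1 or more over the libraries of that fit. Day 27 against day 11 is the mean of the contrasts within running and within sedentary mice, and p-values were adjusted by Benjamini-Hochberg over all genes tested. A letter names a running and a sedentary library, and the labels do not say that they share anything. The fits were run on simulated data with noise drawn separately for each gene. Such data lack the background that the real libraries share, so they cannot check the calls against it.

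The members, lists and rules were chosen with earlier results of these data known. Named genes were to be the 15 largest changes per direction among called genes, of which there were none, then up to 4 members per list of lowest unadjusted p, 9 fixed genes, and the 5 of lowest p per direction in other contrasts. Genes of lowest p outside lists, the most abundant genes called without library a, and Lars2, Rn45s, Xist and Malat1 were chosen after their values were seen. Alternatives covered scaling, pseudocount, filters, background subtraction or covariate, other designs and left-out libraries. Values of a few list members are not reported here.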

Additional observations from a re-analysis of the deposited data

Results flagged for a closer look

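In groups of 4 libraries, the gap of the outermost library was set against the range of its group. Of 26 sets tested, 3 stood out, and chance alone marks about 1 in 20. The olfactory receptor mean of sedentary library a of day 11 was 2.58 TPM, against 0.518 to 0.709 TPM in the other 3 input libraries of day 11. The high background of this library was known when the comparison was set, so its flag is not an independent result. Ttr in running library a of day 11 stood at 202 TPM, against 5.13 to 14.3 TPM in the other 3. Gfap in sedentary library f of day 27 stood at 299.7 TPM, against 261 to 266 TPM in the other 3 input libraries of day 27.

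The difference between days was not the same in the precipitate and in the tissue for 113 genes above 0 and 23 below 0, by the test of the difference itself in limma. Both counts depend on which libraries are in the fit, as given with the effects of processing.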

How the results depend on the processing

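For day 27 against day 11 in the tissue, 0 genes passed with all 12 inputs, other scaling, pseudocounts of 0.1 and 5, no filter, means of at least 5 or 10 TPM, the background covariate or day as the only term. Subtracting the olfactory receptor mean gave 2 higher genes and eBayes without trend and robust 1. Leaving out single libraries gave 0 to 1241 higher and 0 to 5 lower genes, where 1241 belongs to sedentary library a of day 11 and the next count was 1. Alternatives added after seeing the data left out that library and also subtracted the background (236 higher, 8 lower) or kept means of at least 10 TPM (228 higher, 0 lower). Among list members outside the receptor, keratin-associated and defensin families, 12 passed without it and 0 with it. The background difference was 1.17 to 2.02 TPM without single libraries. For running against sedentary mice, the difference between days gave 0 to 334 genes above 0 and 0 to 1 below without single libraries, with 334 when sedentary library b of day 11 was left out. For the IP against the input, counts without single libraries were 0 to 786 above 0 and 0 to 183 below. Median-of-ratios scaling gave 72 and 35, and subtraction of the background 190 and 11. Over the 10 genes named there, 79 gene and setting combinations lost the call and 120 kept it.

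Deviations of libraries that share a letter correlated at 0.29 on day 11 and 0.10 on day 27. With the letter as a random block, 0 genes passed between days in the tissue, and with the letter as a fixed block 106 and 19 passed in the IP against the input. The letters of the days differ, so no fit pairs day 27 with day 11. None of the 217 named genes passed between days, so none had a call to lose, and 41 passed without sedentary library a of day 11. The sign of the difference changed in 93 of them in at least 1 alternative. Of these, 53 did so outside the covariate fit without library a, which changed 64, Cplx1, Commd4 and Cox7b among them. Median-of-ratios scaling changed 7, Prox1 and Cx3cr1 among them, and the covariate with all 8 libraries 24. The read depth is unknown, and low genes carry the widest errors.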
